A study of Rattus norvegicus and Bos taurus with 6 samples.

Results

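The genes of the creatine and calcium futile cycles were followed through 6 single-nucleus RNA-seq libraries of adipose tissue. The 10 members, Ckb, Ckmt2, Gatm, Gamt, Slc6a8, Alpl, Atp2a1, Atp2a2, Atp2a3 and Pm20d1, were chosen by name and matched by symbol in any case, and all 10 were found in the gene lists of all 6 libraries, which hold 16208 to 33585 genes with a count. The rat tissues came from normal male Dahl SS rats (SS/HsdMcwiCrl) kept at 22 °C, and comprised mesenteric perivascular adipose tissue (mesPVAT) on the 10x Genomics platform in batch 1, and mesPVAT, retroperitoneal fat (RP fat), thoracic aorta perivascular adipose tissue (taPVAT) and subscapular brown adipose tissue (BAT) on the Parse Evercode platform in batch 2. The sixth library was subcutaneous white adipose tissue (WAT) from the flank of female lactating Holstein cows, on Parse in batch 2. All tissues were snap frozen, ages are not given in the sources used here, and each tissue and platform has 1 library, with the number of animals not given in the sources used here. The nuclei of taPVAT were spun at a lower speed than those of white fat. Without replicates, no difference between libraries was tested, and every interval below is a 95% interval that covers counting error only.

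UCP1 lets protons return across the inner mitochondrial membrane and so turns fuel into heat. In the creatine cycle, phosphate is passed to creatine by a creatine kinase and taken off again, with a net loss of ATP, and in the calcium cycle the SERCA pumps spend ATP to return calcium to the endoplasmic reticulum from which it leaks. PM20D1 is a secreted enzyme that makes N-acyl amino acids, lipids that can uncouple mitochondria. These other routes have been described as sources of heat in brown or beige adipocytes that do not need UCP1.

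The 6 libraries held 19424 nuclei, 2297 to 5887 per library, and no barcode was shared between any of them. Depth differed widely, with a median of 161 transcripts (unique molecular identifiers, UMIs) per nucleus on 10x, 346 and 213 in the Parse libraries labelled mesPVAT and RP fat, 3530 in cow WAT, 1706 in BAT and 1246 in taPVAT. The order of depth between the Parse libraries labelled mesPVAT and RP fat runs opposite to the order the study describes for these depots. Both are therefore named below by their labels only, as labelled-mesPVAT and labelled-RP. Brown against white counts below set the brown depots against both of them, except where 1 white library alone is named. Those exceptions depend on the labels. For rat mesPVAT and RP fat on Parse, the paper saw no clear inflection in the knee plots. It took this as a sign of difficulty in separating nuclei from ambient RNA. Counts in these libraries may therefore include ambient RNA, and its part was not tested. Ucp1, the brown adipocyte check, stood at 1782 counts per 1000000 UMIs (CPM) in taPVAT and 2072 CPM in BAT, against 63.4 and 89.9 CPM in those labelled mesPVAT and RP fat and 0.808 CPM on 10x. Nuclei were called positive with at least 1 UMI of Plin1, a lipid droplet coat protein, or Adipoq, the adipocyte hormone adiponectin. In the cow library, Plin1 alone was used. These positive nuclei made up 24.0% of nuclei on 10x, 23.2% and 10.5% in labelled-mesPVAT and labelled-RP, 17.5% in cow WAT, 71.1% in BAT and 62.3% in taPVAT. Positive nuclei were deeper in every library, for example with a median of 2188 against 897 UMIs in BAT. The call is loose, since 1 UMI alone made 75.2% of the positive nuclei on 10x, 74.9% in labelled-RP, 46.6% in cow WAT, 37.9% in labelled-mesPVAT, 18.1% in taPVAT and 12.4% in BAT. Plin1 was also seen in 18% of the 50 BAT nuclei with mostly immune markers (median 994 UMIs), in 14.2% of 162 such nuclei in taPVAT (768) and in 11.4% of 343 in cow WAT (3795), so positive nuclei are not adipocyte nuclei alone.

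Among the rat Parse libraries, Atp2a2 and Ckb were the members that stood higher in brown than in white fat with counts in all 4. Both depots rich in Ucp1 had at least 2-fold more of each gene per UMI sequenced than either white Parse library. For Ckb the white Parse values rest on 6 UMIs each, and the call was lost in sublibrary 2 and in nuclei with at least 500 UMIs. White mesPVAT on 10x had more Ckb than either brown depot, at 97.0 CPM. Ckmt2, Atp2a1 and Atp2a3 stood lower in both brown depots, while Gatm, Slc6a8, Alpl and Pm20d1 met neither limit. Slc6a8 and Atp2a3 changed sides with the scaling. By the same limits 5.54% of all genes tested were higher in brown and 47.4% lower. Of the genes with a RefSeq span, 7.6% were higher and 28.9% lower. Within libraries, Pm20d1 was at least 2-fold higher in the positive nuclei of BAT, as were 12.9% of genes. Gatm and Atp2a3 stood lower by that limit in positive nuclei of both brown depots, as did 25.9% of genes in BAT and 29.2% in taPVAT. In cow WAT, Gatm and Ckb were instead the 2 members at least 2-fold higher in the Plin1-positive nuclei, against 5.66% of genes.

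**Figure D1:**
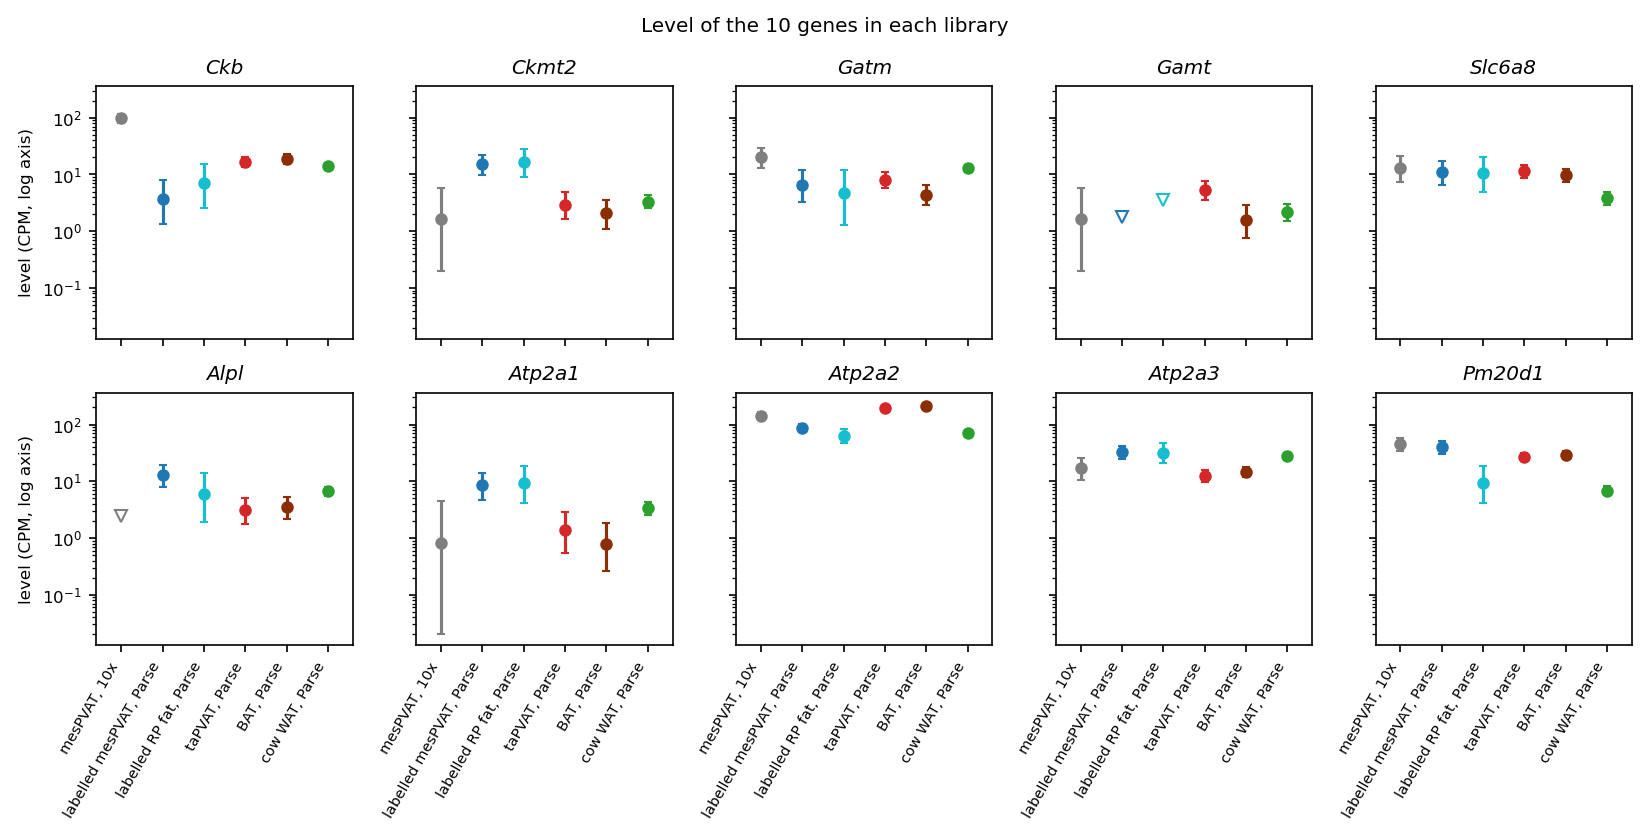
Level of each member in each library, in CPM on a log axis; points are UMIs summed over nuclei, bars are exact 95% Poisson intervals, and an open triangle marks the limit of 3 counts where no UMI was found. Atp2a2 lies between 63.9 and 215.7 CPM in every library, whereas Ckb spans 3.62 to 97.0 CPM and Gamt and Alpl each lack a UMI in at least 1 library.

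Atp2a2 encodes SERCA2, the pump found in most cell types and the one described in the calcium cycle of beige fat. It lies on chr12:39733519-39782942 of the rat genome (GRCr8). Its level was 215.7 CPM (interval 204.4 to 227.5) in BAT, 199.4 (187.3 to 212.0) in taPVAT, 140.6 (120.5 to 163.1) on 10x, 88.1 (74.4 to 103.6) in labelled-mesPVAT, 71.8 (67.8 to 76.0) in cow WAT and 63.9 (48.0 to 83.4) in labelled-RP. The intervals of BAT and taPVAT overlapped, as did those of the 3 lowest libraries in part, and both brown depots lay above every other library. A UMI of Atp2a2 was present in 30.6% of BAT nuclei, 24.2% of taPVAT nuclei and 27.0% of cow nuclei, but in only 2.77% of 10x nuclei. At an equal depth of 200 UMIs per nucleus these expected shares were 3.72%, 3.54%, 1.32% and 2.27%, so the cow share no longer stood near that of the brown depots. Atp2a2 was therefore read by its CPM and not by its share of nuclei.

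Ckb encodes the cytosolic brain-type creatine kinase, which has been placed in the creatine cycle of thermogenic fat. It is a short gene of 2882 bases on chr6:136550583-136553464. Among the rat Parse libraries, Ckb stood at 18.8 CPM (15.6 to 22.5) in BAT and 16.7 (13.3 to 20.6) in taPVAT, against 3.62 (1.33 to 7.88) in labelled-mesPVAT and 7.098 (2.60 to 15.4) in labelled-RP. The 2 brown depots overlapped each other, and the white values rest on 6 UMIs each, with the upper bound of labelled-RP inside the taPVAT interval. In cow WAT Ckb reached 13.9 CPM (12.2 to 15.8), and on 10x 97.0 CPM (80.4 to 115.9), the highest level of any library.

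The promoters of these 2 genes and of Gatm, the member whose direction differed between cow and rat, are shown from RefSeq (GRCr8), each with 250 bases before and 50 after the start the table gives. For Gatm that start is not the far end of the gene span used here, which runs 8321 bases beyond the window. Promoters of this kind were available for 9 of the 10 members. Capitals mark matches on either strand to a few short motifs of common promoters. TATAAA is the TATA box and CCAAT is the box of that name. GGGCGG is the GC box, bound by Sp factors. Also searched were TGACGTCA, the cAMP response element, and AGGTCA, the core site of nuclear receptors.
Ckb, chr6:136553415-136553714, minus strand: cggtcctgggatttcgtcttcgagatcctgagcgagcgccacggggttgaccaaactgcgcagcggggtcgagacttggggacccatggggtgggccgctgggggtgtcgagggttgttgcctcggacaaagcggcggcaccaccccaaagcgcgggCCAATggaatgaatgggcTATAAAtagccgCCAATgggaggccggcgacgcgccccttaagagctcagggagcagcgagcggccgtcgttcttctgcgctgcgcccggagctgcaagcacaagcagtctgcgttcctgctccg
Atp2a2, chr12:39733269-39733568, plus strand: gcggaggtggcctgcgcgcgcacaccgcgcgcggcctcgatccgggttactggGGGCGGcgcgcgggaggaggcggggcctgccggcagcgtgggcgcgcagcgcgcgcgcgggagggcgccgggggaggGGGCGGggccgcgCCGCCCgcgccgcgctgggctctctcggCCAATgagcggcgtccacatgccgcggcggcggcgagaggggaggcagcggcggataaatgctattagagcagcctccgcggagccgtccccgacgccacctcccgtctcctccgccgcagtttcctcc
Gatm, chr3:130129044-130129343, minus strand: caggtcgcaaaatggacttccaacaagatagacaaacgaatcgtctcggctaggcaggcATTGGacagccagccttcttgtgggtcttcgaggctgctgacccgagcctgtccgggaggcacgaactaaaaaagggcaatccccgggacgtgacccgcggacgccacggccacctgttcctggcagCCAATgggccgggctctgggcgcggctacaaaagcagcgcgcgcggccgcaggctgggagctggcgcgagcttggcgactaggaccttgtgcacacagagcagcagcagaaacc

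Ckb was the 1 member of the 9 with TATAAA in this window, a motif held by 14.2% of 33469 promoters, and it lies there between a pair of CCAAT matches. The Atp2a2 window had 79% G and C, 3 GGGCGG matches and 1 CCAAT match, and GGGCGG was found in 33.1% of all promoters and 6 members. CCAAT was found in 6 members, including Gatm, and 37.5% of all promoters. AGGTCA was found in Atp2a1 alone, against 16.2% of all promoters, and TGACGTCA in none of the 9, against 1.83%. These matches describe the letters of the windows only.

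The first comparison asked which members differed between the depots that carry the brown marker and those that do not, within the same kit and batch. A gene was counted when it had at least 20 UMIs over the 4 rat Parse libraries and when both brown depots lay at least 2-fold above, or below, both white libraries. Of the 10 members, 3 were higher in brown (Ckb, Gamt and Atp2a2), against 5.54% of all 24063 genes, and 3 were lower (Ckmt2, Atp2a1 and Atp2a3), against 47.4% of all genes. The adipocyte markers Plin1 and Adipoq had brown to white ratios of mean CPM of 2.80 and 2.78, without meeting the limit in every pair of libraries. For the members, the mean CPM of the brown depots over that of the white libraries was 3.31 for Ckb and 2.73 for Atp2a2. It was 0.423 for Atp2a3, 0.158 for Ckmt2 and 0.121 for Atp2a1. Over all genes the median of this ratio was 0.378, a log2 shift of -1.40, and Ckb and Atp2a2 lay 8.76 and 7.22 times above it. This background depends on the genes taken: the 15530 of them with a RefSeq span, which include all members, had a median of 0.784, with 7.6% higher and 28.9% lower in brown, and the other 8533 genes make up the difference. Against the genes with a span, Ckb and Atp2a2 lay 4.22 and 3.48 times above the median.

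Directions also depended on the scale for some members. When libraries were scaled by the median of ratios over genes, the split of called genes went from 10.5% higher in brown to 53.3% higher. On that scale 27.2% of all genes tested were higher in brown and 23.8% lower. The members then counted higher were Ckb, Gamt, Slc6a8 and Atp2a2, and those counted lower Ckmt2 and Atp2a1. The ratio then became 9.12 for Ckb and 7.11 for Atp2a2, which stayed higher, and 0.412 for Ckmt2 and 0.313 for Atp2a1, which stayed lower. Atp2a3 turned from 0.423 to 1.12 and lost its call. Slc6a8, the plasma membrane creatine transporter, turned from 0.977 to 2.56 and was then counted as higher in brown. Gatm and Pm20d1 moved to 2.77 and 2.84 without meeting the limit in every pair of libraries. Over all nuclei, Atp2a2 kept its call within each Parse sublibrary and at every other setting tried except a limit of 3-fold, whereas Ckb lost it in sublibrary 2, in nuclei with at least 500 UMIs and at 3-fold, and Gamt in sublibrary 1. Of the lower members, Ckmt2 alone kept its call in sublibrary 2, where Atp2a1 and Atp2a3 lost it.

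Gamt, the second enzyme of creatine synthesis, was counted as higher only because neither white Parse library had a UMI of it. It had 27 UMIs in taPVAT (5.29 CPM, interval 3.49 to 7.70) and 10 UMIs in BAT (1.58 CPM, 0.759 to 2.91). No UMI allows up to 1.81 CPM in labelled-mesPVAT and 3.55 CPM in labelled-RP, on a limit of 3 counts per library. With its 27 UMIs taken as exact, taPVAT was at least 2.92-fold higher than the limit of labelled-mesPVAT, but its lower bound of 3.49 CPM lay under the limit of labelled-RP. BAT lay below both limits. A difference of taPVAT from labelled-RP, or of BAT from either white library, was thus not detectable at this depth. Gamt had 2 UMIs on 10x and 36 in cow WAT (2.14 CPM).

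Ckmt2, the mitochondrial creatine kinase of muscle, and Atp2a1, the SERCA1 pump of fast skeletal muscle, are genes of striated muscle. Ckmt2 was at 15.1 CPM (9.77 to 22.3) in labelled-mesPVAT and 16.6 (9.05 to 27.8) in labelled-RP, against 2.94 (1.65 to 4.85) in taPVAT and 2.06 (1.10 to 3.52) in BAT. Atp2a1 was at 8.45 CPM (4.62 to 14.2) and 9.46 (4.09 to 18.6) in the white libraries, against 1.37 (0.552 to 2.83) and 0.791 (0.257 to 1.85). For both genes the white and brown intervals did not overlap. Such low values were common, as 32.0% of genes tested had a lower brown to white ratio than Ckmt2 and 19.8% than Atp2a1. On 10x, Ckmt2 had 2 UMIs and Atp2a1 had 1, and in cow WAT each had 56 UMIs (3.33 CPM). All 15 matched genes of the 16-gene skeletal muscle list were seen in both white libraries and in BAT, and Myh4 was at 0 in taPVAT. The list also stood higher in the white libraries, at a summed 631.4 and 722.8 CPM against 357.2 in taPVAT and 240.9 in BAT. The brown to white ratio of that sum, 0.442, was above the 0.378 of the median gene and below the 0.784 of the median gene with a span. Both members kept the call after nuclei with at least 2 UMIs of that list were left out, and Atp2a1 lost it in sublibrary 2. That filter left 2856 of 3028 nuclei in labelled-mesPVAT and 2715 of 2805 in labelled-RP. It cannot take out muscle transcripts spread over nuclei with fewer UMIs of the list. The part of muscle RNA in these levels was not tested.

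A few taPVAT nuclei carried part of the Ckmt2 count. The 8 nuclei with at least 10 UMIs of Myh6, the heart myosin heavy chain, were chosen after their values were seen. They held 4 of the 15 Ckmt2 UMIs and 37 of the 1017 Atp2a2 UMIs of the library, or 287.9 and 2663 CPM, where the other taPVAT nuclei stood at 2.16 and 192.7 CPM. Atp2a2 without the 8 Myh6 nuclei therefore stayed close to its level in the whole library. In the 41 taPVAT nuclei with mostly skeletal muscle markers, Atp2a2 reached 682.5 CPM (30 UMIs) in 7 nuclei, but Atp2a1 had no UMI there. The 8 Myh6 nuclei held 473 UMIs of Ttn, a gene of the skeletal muscle list, against 205 of Myh6. Both sets may therefore share nuclei, and their overlap was not counted.

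Atp2a3 encodes SERCA3, known from blood cells and some endothelium. It stood at 32.6 CPM (24.5 to 42.5) and 31.9 (21.0 to 46.5) in labelled-mesPVAT and labelled-RP, at 28.0 (25.6 to 30.7) in cow WAT, 16.97 (10.5 to 25.9) on 10x, 14.7 (11.9 to 18.0) in BAT and 12.5 (9.66 to 16.0) in taPVAT. The 3 higher libraries overlapped one another and so did the 3 lower ones, and the 10x interval reached into both sets. Among the pumps in BAT, per kb of gene span, Atp2a2 was counted at 4.36 CPM, Atp2a3 at 0.466 and Atp2a1 at 0.0435.

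The remaining members did not separate brown from white rat fat in CPM, although Slc6a8 did after median-of-ratios scaling. In CPM, Slc6a8 was at 12.9, 10.9, 10.6, 11.4 and 9.66 CPM on 10x, in labelled-mesPVAT and labelled-RP, and in taPVAT and BAT, with 3.80 CPM in cow WAT. All 5 rat intervals overlapped. Alpl, a phosphatase reported to hydrolyse phosphocreatine in the cycle, had no UMI on 10x and stood at 12.7 CPM (7.85 to 19.4) in labelled-mesPVAT, 6.66 (5.48 to 8.01) in cow WAT, 5.91 (1.92 to 13.8) in labelled-RP, 3.48 (2.18 to 5.27) in BAT and 3.14 (1.79 to 5.09) in taPVAT. Among the rat libraries with a UMI, only labelled-mesPVAT had an interval apart from both brown depots, and cow WAT lay just above them.

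Pm20d1 divided the white libraries from each other. It was at 45.3 CPM (34.2 to 58.8) on 10x, 39.8 (30.8 to 50.7) in labelled-mesPVAT, 29.4 (25.4 to 33.99) in BAT, 27.1 (22.7 to 32.0) in taPVAT, 9.46 (4.09 to 18.6) in labelled-RP and 6.83 (5.64 to 8.20) in cow WAT. The 2 lowest libraries overlapped each other and no other library. Against labelled-RP alone, Pm20d1 was at least 2-fold higher in both brown depots, but not against labelled-mesPVAT. Gatm, the first and rate-limiting enzyme of creatine synthesis, stood at 20.2 CPM (13.1 to 29.8) on 10x, 12.8 (11.1 to 14.6) in cow WAT, 8.04 (5.77 to 10.9) in taPVAT, 6.64 (3.31 to 11.9) and 4.73 (1.29 to 12.1) in labelled-mesPVAT and labelled-RP, and 4.43 (2.94 to 6.41) in BAT. The 4 rat Parse libraries overlapped.

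Gene length moved with level in these nuclei. Across 15530 genes, which are not independent, Spearman's rho between CPM and gene span was 0.691 and 0.772 in labelled-mesPVAT and labelled-RP and 0.435 and 0.422 in taPVAT and BAT. The median brown to white ratio was 0.952 for genes under 10 kb and 0.576 for genes of at least 100 kb. Ckb and Gamt are the shortest members, at 2882 and 2817 bases, while Atp2a2 spans 49424 bases. The part of gene span in these ratios was not tested.

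**Figure D2:**
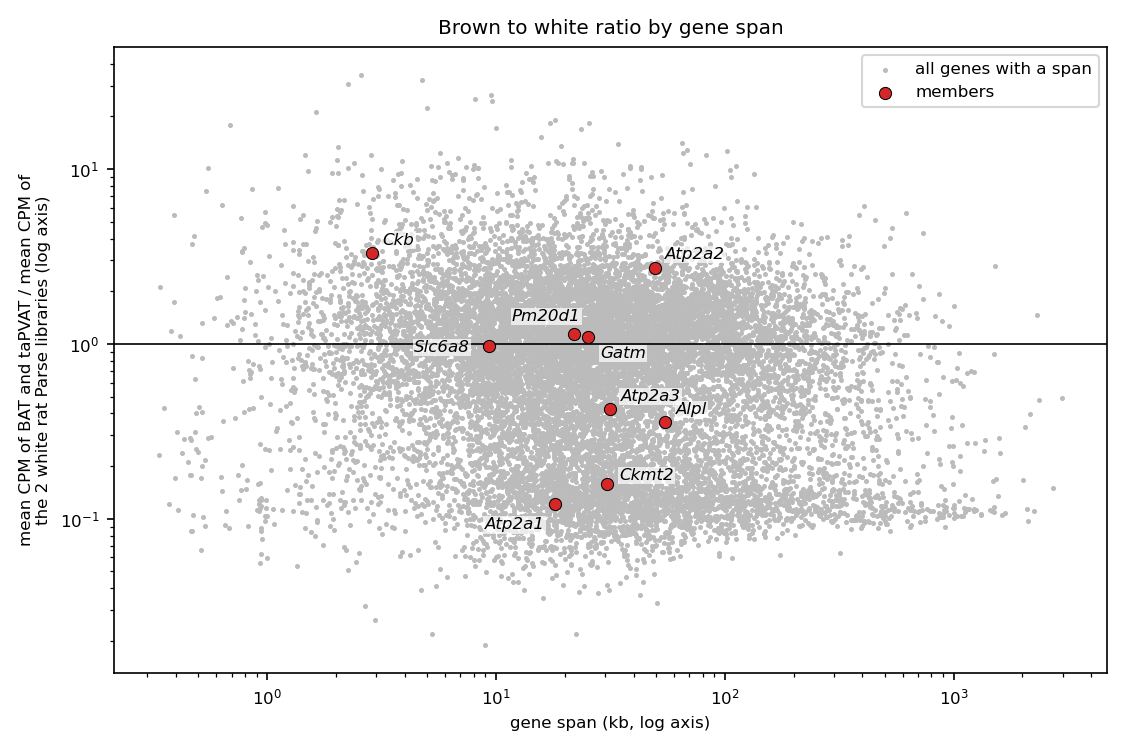
Mean CPM of BAT and taPVAT over the mean CPM of the white rat Parse libraries (log axis) against gene span in kb (log axis); grey points are the genes with a span and red points 9 members, with Gamt left out because it had no white UMI. Ckb at 3.31 and Atp2a2 at 2.73 lie above 1 near opposite ends of the members' spans, and Ckmt2 at 0.158 and Atp2a1 at 0.121 lie lowest.

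The second comparison asked whether the difference between depots was also present among positive nuclei alone. In CPM summed over all nuclei, as above, the mix of nuclei and the share of a gene among the UMIs of each kind of nucleus cannot be told apart. Among positive nuclei, 3 of the 9 members with at least 20 UMIs were higher in both brown depots (Ckb, Gamt and Atp2a2), against 7.46% of genes. Of these, only Atp2a2 had UMIs in both white libraries, 58 in labelled-mesPVAT and 5 in labelled-RP, and it averaged 219.2 CPM in brown and 66.0 CPM in white positive nuclei, a ratio of 3.32. Ckb was at 17.1 CPM in taPVAT and 17.9 in BAT, with 2 UMIs (3.10 CPM) in labelled-mesPVAT and none in labelled-RP, and Gamt had no UMI in either. In positive nuclei no UMI allows up to 4.66 CPM in labelled-mesPVAT and 25.2 CPM in labelled-RP. The limit of labelled-RP lay above both brown levels of Ckb and Gamt, so their difference from labelled-RP was not detectable. Gamt in BAT, at 1.68 CPM, also lay below the limit of labelled-mesPVAT, so that difference was not detectable either. Ckmt2 was the 1 member counted lower, against 34% of genes, with 10 UMIs in labelled-mesPVAT and 1 in labelled-RP, and it lost that call in each sublibrary alone, in nuclei with at least 500 UMIs and with positive nuclei taken from 2 UMIs. Among negative nuclei none of 8 members was higher, against 3.31%, and 2 were lower (Ckmt2 and Atp2a1), against 34.2%. The ratio of means there was still 3.225 for Ckb, 3.01 for Gatm and 1.93 for Atp2a2, while the other members tested lay below 1. In labelled-mesPVAT and labelled-RP, Ckb had 4 and 6 UMIs in negative nuclei and Gatm 9 and 2. Ckb in negative nuclei did not meet the 2-fold limit in every pair of libraries, at 14.8 CPM in taPVAT against 8.26 in labelled-RP. Brown negative nuclei also held Ucp1, at 265.5 CPM in taPVAT and 247.3 in BAT. Whether the Ckb difference was particular to positive nuclei cannot be told from these counts.

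The third comparison set positive against negative nuclei within each library, with UMIs of Plin1 and Adipoq left out of the totals. Pm20d1 had the largest ratio of the members tested in BAT, at 33.4 CPM in positive and 7.49 CPM in negative nuclei, a ratio of 4.45 (2.12 to 11.2). The ratio was 1.87 (1.09 to 3.45) in taPVAT and 1.99 (1.13 to 3.49) on 10x, both with intervals above 1. It was 1.31 (0.777 to 2.18) in labelled-mesPVAT and 1.35 (0.919 to 1.98) in cow WAT, with intervals that included 1. A UMI of Pm20d1 was seen in 8.60% of the 1733 BAT nuclei with mostly adipocyte markers, at a median of 2196 UMIs, and in 0 of the 50 with mostly immune markers, at 994 UMIs. After thinning each BAT nucleus to 200 UMIs, the ratio was 1.67, under the 2-fold limit. Positive nuclei were called anew after thinning, with 918 left against 1918 before. At that depth 0.563% of BAT nuclei were expected to hold a Pm20d1 UMI. This setting cannot tell a smaller difference from the loss of counts and positive calls.

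Atp2a2 was counted in both positive and negative nuclei. The ratio was 1.82 (1.51 to 2.22) in BAT, 1.21 (1.02 to 1.45) in taPVAT, 1.27 (0.918 to 1.75) on 10x, 1.03 (0.729 to 1.46) in labelled-mesPVAT, 0.623 (0.194 to 1.56) in labelled-RP and 0.825 (0.732 to 0.930) in cow WAT. It exceeded 1 beyond counting error only in the brown depots, and lay below 1 in the cow. In sublibraries 1 and 2 the ratio was 2.15 and 1.57 in BAT, but 1.46 and 1.03 in taPVAT. By marker class, the list with the most UMIs in a nucleus, Atp2a2 in BAT stood at 234.8 CPM in adipocyte, 88.4 in endothelial and 304.0 in mural nuclei, and in cow WAT at 55.6, 62.6 and 145.1 CPM. Mural nuclei, those of smooth muscle cells and pericytes, had more of it than adipocyte nuclei in both, but not in taPVAT (138.1 against 209.7 CPM).

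Slc6a8 had ratios above 1 in every rat library, but on few UMIs. The ratio was 2.48 (0.918 to 9.41) in BAT, where only 4 UMIs lay in negative nuclei, and 1.43 (0.671 to 3.49) in taPVAT. The BAT ratio turned to 0.651 when nuclei were thinned to 200 UMIs. At that depth 0.198% of BAT nuclei were expected to hold a Slc6a8 UMI, and positive nuclei were called anew. That value therefore shows no direction. Labelled-mesPVAT, labelled-RP and 10x had under 20 UMIs each, with ratios of 2.46, 3.05 and 1.79. Every one of these intervals included 1. In cow WAT the ratio was 0.944 (0.547 to 1.60).

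Gatm lay on opposite sides in the brown rat depots and cow WAT. In BAT it was at 2.61 CPM in positive and 15.0 CPM in negative nuclei, a ratio of 0.174 (0.0769 to 0.394). The ratio was 0.264 (0.137 to 0.516) in taPVAT and 0.438 (0.109 to 1.298) on 10x, the latter from 4 UMIs in positive nuclei. In cow WAT Gatm was at 22.5 CPM in positive and 6.19 CPM in negative nuclei, a ratio of 3.63 (2.69 to 4.96). After thinning to 200 UMIs per nucleus, the 39 positive cow nuclei left held no UMI of Gatm or Ckb. At the CPM of these genes no UMI was to be expected in so few nuclei, so this setting cannot show a direction. Labelled-mesPVAT had 11 and labelled-RP 4 Gatm UMIs, with ratios of 0.348 and 6.11 whose intervals included 1. The difference between the species was not tested, since each has 1 library of its kind and the cow library differs in sex, depot, genome and depth as well.

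By marker class, Gatm in the rat stood higher in endothelial than in adipocyte nuclei. It was at 19.2 CPM in endothelial against 2.06 in adipocyte nuclei of BAT, and at 28.7 against 3.71 CPM in taPVAT, where immune nuclei had 31.6 CPM from 5 UMIs. Endothelial markers as a list of 8 genes, all 8 seen, summed to 886.4 CPM in positive and 4046 CPM in negative nuclei of BAT. In cow WAT Gatm was at 28.8 CPM in adipocyte, 11.4 in ASPC (adipose stem and progenitor cell), 9.47 in immune and 4.25 CPM in endothelial nuclei. The cow order of adipocyte and endothelial nuclei was the reverse of the order in both brown depots.

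Ckb had no clear side in the rat. Its ratio was 1.15 (0.766 to 1.70) on 10x, 1.16 (0.647 to 2.22) in taPVAT and 0.727 (0.457 to 1.20) in BAT, all with intervals that included 1. In BAT it was at 15.2 CPM in adipocyte, 24.3 in endothelial and 50.1 CPM in mural nuclei. In cow WAT it was at 23.7 CPM in positive and 7.29 CPM in negative nuclei, a ratio of 3.25 (2.45 to 4.34), and 133 of its 234 UMIs lay in the 226 adipocyte nuclei. Of these, 22.6% had a Ckb UMI (median depth 6231), against 9.04% of immune nuclei (3795) and 1.97% of endothelial nuclei (4070).

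Atp2a3 was lower in positive nuclei beyond counting error in 4 libraries. The ratio was 0.243 (0.144 to 0.410) in taPVAT, 0.366 (0.233 to 0.585) in BAT, 0.497 (0.244 to 0.946) in labelled-mesPVAT and 0.530 (0.429 to 0.652) in cow WAT. The intervals on 10x (0.206 to 2.05) and in labelled-RP (0.147 to 2.51) included 1. Atp2a3 stood highest in immune nuclei of taPVAT at 88.4 CPM, in mural nuclei of BAT at 81.5 CPM and in immune nuclei of cow WAT at 69.6 CPM, against 6.35, 6.17 and 13.8 CPM in the adipocyte nuclei of these libraries. Within the study's limits on nuclei, which leave out the deepest, the cow ratio was 0.852.

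**Figure D3:**
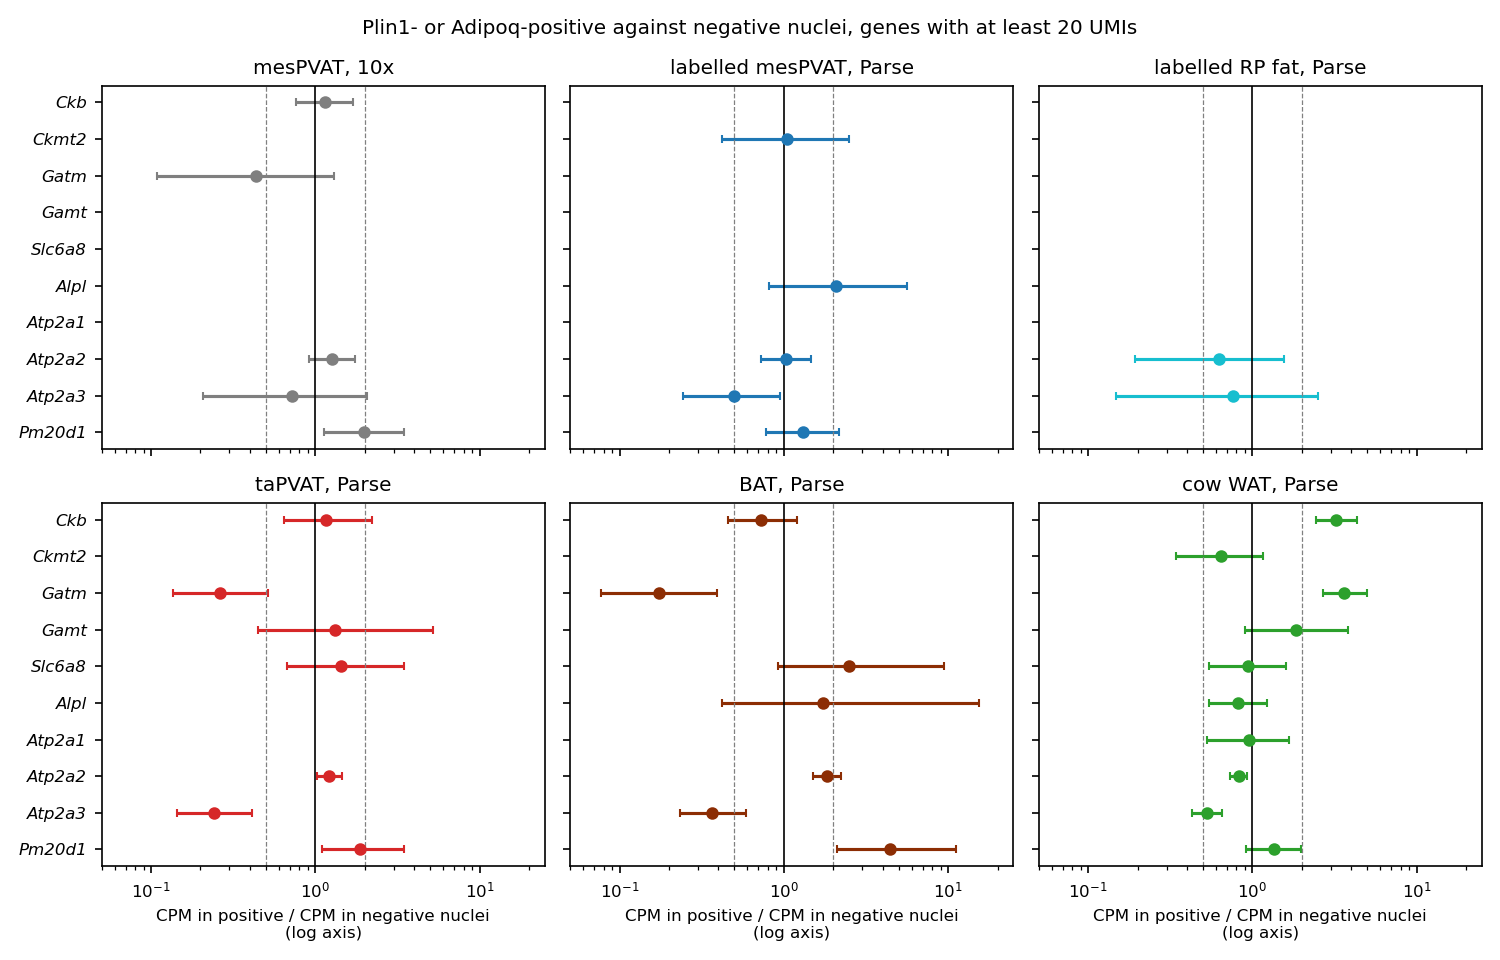
Ratio of CPM in Plin1- or Adipoq-positive to negative nuclei (log axis) for members with at least 20 UMIs in each library; bars are exact conditional 95% intervals, the solid line marks 1 and the dashed lines 2-fold. Gatm lies at 0.174 in BAT and at 3.63 in cow WAT, and Pm20d1 at 4.45 in BAT.

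Counted over members with at least 20 UMIs, 2 of 7 were at least 2-fold higher in positive nuclei of BAT (Pm20d1, and Slc6a8 with an interval that included 1), against 12.9% of genes, and 2 of 7 lower (Gatm and Atp2a3), against 25.9%. In taPVAT 0 of 7 were higher, against 9.98%, and 2 of 7 lower (Gatm and Atp2a3), against 29.2%. In cow WAT 2 of 10 were higher (Gatm and Ckb), against 5.66%, and 0 lower, against 9.16%. On 10x, 0 of 5 were higher, against 2.43%, and 1 lower (Gatm), against 10.3%. In labelled-mesPVAT, 1 of 5 was higher (Alpl at 2.09, interval 0.808 to 5.62, which turned to 0.819 with positive nuclei from 2 UMIs), against 3.41%, and 1 lower (Atp2a3), against 8.24%. In labelled-RP, neither of the 2 members with enough UMIs was counted in either direction, against 5.61% higher and 13.6% lower. The median ratio over the members was 1.74 in BAT, 1.21 in taPVAT and 0.948 in cow WAT, beside 0.817, 0.747 and 0.898 over all genes tested.

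The low members added little within libraries. Gamt had a ratio of 1.84 (0.906 to 3.80) in cow WAT and 1.31 (0.449 to 5.22) in taPVAT. Ckmt2 had 1.05 (0.420 to 2.49) in labelled-mesPVAT and 0.642 (0.340 to 1.16) in cow WAT, where mural nuclei held 14 of its 56 UMIs at 17.1 CPM against 1.503 CPM in adipocyte nuclei. Atp2a1 passed 20 UMIs in cow WAT alone, with a ratio of 0.953 (0.531 to 1.68). Alpl in cow WAT had a ratio of 0.818 (0.541 to 1.22) and its level was 9.92 CPM in endothelial against 3.26 CPM in adipocyte nuclei.

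**Figure D4:**
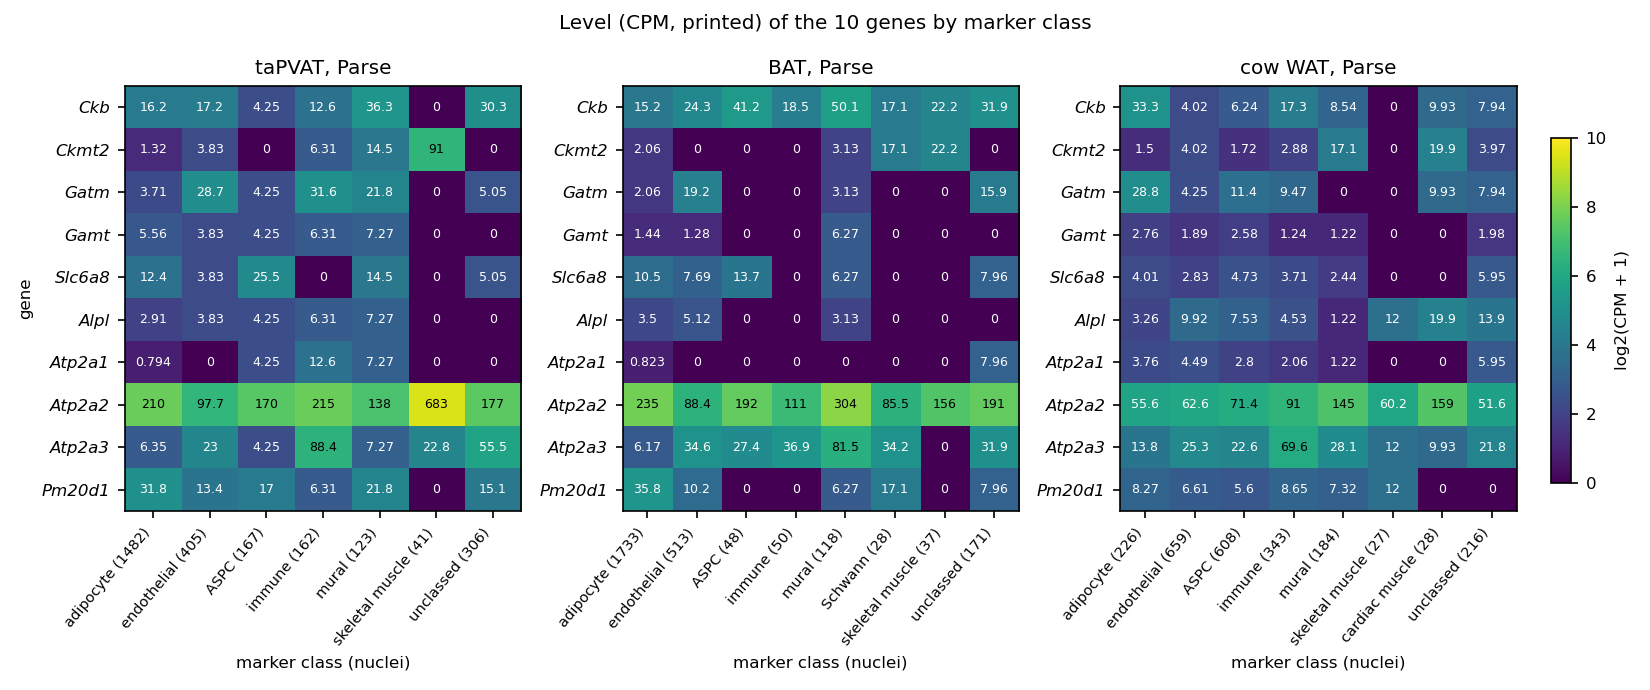
CPM of each member (rows) in nuclei grouped by their most frequent marker list (columns, with the number of nuclei), for taPVAT, BAT and cow WAT; the color is log2(CPM + 1) and the CPM is printed. Atp2a2 is highest at 304.0 CPM in mural nuclei of BAT and 682.5 CPM in the skeletal muscle group of taPVAT. That group may share nuclei with those rich in Myh6. Gatm is at 28.8 CPM in adipocyte nuclei of cow WAT but 2.06 CPM in those of BAT.

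Among positive nuclei of the brown depots, the members were also read against Ucp1, a split added after the levels had been seen. Positive nuclei were divided at the median Ucp1 share, which gave 843 and 844 nuclei in taPVAT and 959 and 959 in BAT, of which the Ucp1-high nuclei were deeper (median 2286 against 1418 UMIs in taPVAT and 2461 against 1831 in BAT). Cidea, a lipid droplet protein of brown adipocytes, was 1.89-fold and 1.501-fold higher in the Ucp1-high nuclei. Atp2a2 was 1.23-fold higher there in BAT (1.09 to 1.38) and 1.10-fold in taPVAT (0.954 to 1.26), against a median of 0.864 and 0.873 over all genes. Atp2a3 was lower in the Ucp1-high nuclei of both, at 0.305 (0.164 to 0.541) in BAT and 0.299 (0.127 to 0.654) in taPVAT. Of all genes tested, 19.2% in BAT and 16.5% in taPVAT were at least 2-fold lower there. Ckmt2 was at 0.0765 (0.00174 to 0.552) in taPVAT, on 1 UMI against 9, and at 0.353 (0.0589 to 1.55) in BAT. Slc6a8 went opposite ways, at 1.94 (1.07 to 3.65) in BAT and 0.498 (0.270 to 0.905) in taPVAT. Pm20d1 at 1.35 (0.986 to 1.85) and 1.08 (0.739 to 1.58), and Ckb at 0.697 (0.456 to 1.06) and 0.669 (0.408 to 1.10), had intervals that included 1.

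The wider pathway was read from a list of 43 genes of creatine handling, calcium release and uptake, SERCA regulation, adrenergic receptors, N-acyl amino acid breakdown and uncoupling. In positive against negative nuclei of BAT, 7 of 29 tested were at least 2-fold higher, against 12.9% of all genes, and 11 lower, against 25.9%. In taPVAT 7 of 30 were higher, against 9.98%, and 14 lower, against 29.2%. In cow WAT 0 of 30 were higher, against 5.66%, and 3 lower, against 9.16%. On 10x, 1 of 20 was higher, against 2.43%, and 1 lower, against 10.3%. In labelled-mesPVAT 1 of 27 was higher, against 3.41%, and 3 lower, against 8.24%, and in labelled-RP 2 of 26 were higher, against 5.61%, and 2 lower, against 13.6%. The median ratio of the list was 0.571 in BAT, 0.552 in taPVAT and 0.777 in cow WAT, 0.855 on 10x and 0.814 in labelled-mesPVAT, each below the median of all genes in its library, and 0.944 in labelled-RP, above it (0.927).

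The largest ratios of the list in the brown depots were those of Adrb3, Ucp1 and Adra1a, in that order in both. Adrb3, the beta-3 adrenergic receptor, had ratios of 11.9 (8.32 to 17.7) in BAT and 8.41 (6.17 to 11.8) in taPVAT. Adra1a, an alpha-1 receptor that raises cell calcium, had 7.56 (6.53 to 8.81) and 7.25 (6.26 to 8.45). The remaining receptor of the list, Adra1b, named after its values were seen, went the other way, at 0.435 (0.160 to 1.37) and 0.279 (0.105 to 0.762). Itpr2, a channel that releases calcium from the endoplasmic reticulum, had 3.61 (3.38 to 3.85) and 3.47 (3.25 to 3.71), at 3841 and 3504 CPM in positive nuclei. Ucp1 had 9.69 and 8.04.

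Phospho1, a phosphatase also tied to phosphocreatine in fat, had 2.68 (1.62 to 4.76) in BAT and 2.24 in taPVAT, and Vdac1, a channel of the outer mitochondrial membrane, 2.90 (2.04 to 4.24) in taPVAT. The smallest ratios were those of Casq2 at 0.201, Slc8a1 at 0.221 and Ryr3 at 0.246 in BAT, and of Orai2 at 0.189, Slc8a1 at 0.253 and Slc16a12 at 0.254 in taPVAT. These encode a calcium store protein, the sodium-calcium exchanger, a ryanodine receptor, a store-operated channel and a creatine transporter. In cow WAT the largest were Tmem64 at 1.73, Vdac1 at 1.69, Adra1a at 1.66, Atp2b1 at 1.48 and Camk2d at 1.41, and the smallest Pln at 0.340, Ryr2 at 0.388 and Orai3 at 0.483. Between brown and white rat Parse libraries, 7 of 36 list genes were higher, against 5.54% of all genes, and 11 lower, against 47.4%. The higher ones included Ucp1 at 25.1, Adra1a at 9.87, Itpr2 at 6.17, Adrb3 at 5.62, Phospho1 at 4.00 and Vdac1 at 3.18. The lower ones included Ryr3 at 0.134, Ryr2 at 0.192, Slc16a12 at 0.217 and Pln at 0.235. Lower still were Mrln at 0.0816, Atp2b3 at 0.104 and Atp2b2 at 0.127, named after their values were seen.

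The fourth comparison set the 10x library beside the Parse library labelled mesPVAT. Platform, batch, nuclei sorting and the processing software differ between them. The study's supplement describes another nuclei isolation for 10x and names another rat genome build. The depot may differ too, since the order of depth of the Parse libraries labelled mesPVAT and RP fat ran opposite to the study's. These differences cannot be told apart. Of 8 members with at least 20 UMIs, 2 were at least 2-fold higher on 10x (Ckb and Gatm), against 22.6% of genes, and 2 lower (Ckmt2 and Alpl), against 32.8%. Ckb had 120 UMIs on 10x and 6 on Parse, a ratio of 26.8 (11.9 to 74.4), above 99.2% of genes. Gatm had a ratio of 3.04 (1.44 to 6.85) and Atp2a2 of 1.60 (1.27 to 2.00). Alpl had 0 UMIs on 10x and 21 on Parse, which is at least 5.23-fold lower on a limit of 3 counts with the 21 UMIs taken as exact, and the exact interval of its ratio ended at 0.257. Ckmt2 had a ratio of 0.107 (0.0123 to 0.429).

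The other members lay nearer to each other in the 2 libraries. Pm20d1 had a ratio of 1.14 (0.781 to 1.65), Slc6a8 of 1.19 (0.568 to 2.47) and Atp2a3 of 0.521 (0.299 to 0.876). Over all genes the median ratio went from 1.98 for genes under 10 kb to 0.571 for those of at least 100 kb, and Adipoq itself stood at 12.2 and Ucp1 at 0.0127.

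Genes most like a member were named for the 4 members with at least 200 UMIs over the rat Parse libraries, by Pearson's r of log2(CPM + 10) over 25 library and marker class points, among 9407 genes. The points share libraries and depth, so r is a description. Dcun1d2 was most like Pm20d1 (0.84), followed by Arl2 (0.76) and Mcm3ap (0.72). Csnk2a1 was most like Atp2a2 (0.81), followed by ENSRNOG00000069594 and ENSRNOG00000072178, which have no symbol in the table. Sp1 and Phlpp1 (0.76 and 0.75), beside AABR07035428.2, were most like Ckb, and Ipp (0.75), Ftl1l2 (0.69) and Fam118b (0.69) most like Atp2a3.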

How the data were processed

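Single-nucleus RNA-seq of 6 libraries was used. For the Parse libraries the authors ran split-pipe 1.5.1 on GRCr8 or ARS-UCD1.3 and deposited UMI counts per gene and nucleus; for 10x they deposited Cell Ranger 7.1.0 counts, with Rnor_6.0 named in the supplementary methods. Whether the deposited 10x counts were made on that build was not settled, since their gene IDs look newer. The deposited counts are unnormalized. Total UMIs per library ranged from 845316 to 16827260, which limits members with few UMIs.

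All nuclei were used, and neither doublets nor ambient RNA were removed. UMIs were summed over nuclei and scaled to CPM. Intervals were exact Poisson for levels, exact binomial for shares and exact conditional for ratios, at 95%. With 1 library per group no test was made, and genes were called by size (2-fold, at least 20 UMIs). A nucleus took the marker class with the most UMIs if at least 2 and untied. All 10 members were named. Of the pathway list, up to 5 genes with the largest and 3 with the smallest ratio in BAT, taPVAT and cow WAT were named, and Ucp1, Plin1 and Adipoq as checks. Members and lists were chosen with earlier results of these data known. Gene spans and promoters were from RefSeq (GRCr8). Python 3.11.15, numpy 2.4.6, scipy 1.17.1, pandas 2.3.3 and matplotlib 3.10.9 were used, with the seed 20.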

Additional observations from a re-analysis of the deposited data

Results flagged for a closer look

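Gatm was marked for a closer look because its positive to negative ratio pointed in opposite directions between libraries. In cow WAT the ratio was 3.63, with Gatm higher in Plin1-positive nuclei, whereas it was 0.438 on 10x, 0.264 in taPVAT and 0.174 in BAT. The difference was not tested, since species, sex, depot, genome and depth differ together and each has 1 library. The 10x value rests on 4 UMIs in positive nuclei, and its interval included 1.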

How the results depend on the processing

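No paired analysis was possible because each tissue and platform had 1 library, and no replicate could be left out for the same reason. Of the 16 counts of members, 133 values under other settings stayed within 1.5 times the reported count and 65 moved beyond it, as whole numbers under 5. The cause of these moves was not tested. Among counts higher and lower in positive nuclei, the values that moved were as follows. In nuclei within the study's limits, 1 was higher on 10x and 0 in labelled-mesPVAT. In nuclei with at least 500 UMIs, 0 were higher in labelled-mesPVAT and 0 lower on 10x, and 0 were lower in brown among positive nuclei. In Parse sublibrary 1, 0 were higher in labelled-mesPVAT and 1 in taPVAT, and 1 was lower in each of labelled-RP, taPVAT and BAT. In sublibrary 2, 0 were higher in labelled-mesPVAT, 1 in taPVAT and 1 in BAT, 0 were lower in labelled-mesPVAT and BAT and 1 in cow WAT, and in brown 1 was lower over all nuclei and 0 over positive nuclei. Without nuclei with muscle UMIs, 0 were higher in labelled-mesPVAT and 1 in taPVAT. Without the most abundant genes in the denominator, 1 was higher in taPVAT, 0 lower in labelled-mesPVAT and 1 lower in cow WAT.

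With positive nuclei taken from 2 UMIs, 0 were higher in labelled-mesPVAT and 1 in BAT, 2 were lower on 10x, 0 in labelled-mesPVAT, 1 in labelled-RP and 3 in cow WAT, and 0 lower in brown among positive nuclei. With positive nuclei from any adipocyte marker, 1 was higher on 10x, 0 in labelled-mesPVAT and 3 in taPVAT, 0 were lower on 10x and in labelled-mesPVAT, and 2 lower in brown among positive nuclei. Thinned to 200 UMIs, 0 were higher in labelled-mesPVAT and cow WAT and 1 in BAT, and 0 were lower on 10x, in labelled-mesPVAT, taPVAT and BAT and 1 in cow WAT. With equal weight for each nucleus, 0 were higher in labelled-mesPVAT and 2 in taPVAT, and 2 lower on 10x and 1 in labelled-RP. With no minimum of UMIs, 2 were higher in labelled-mesPVAT and 2 in labelled-RP, and 4 lower on 10x, 3 in labelled-mesPVAT and 4 in labelled-RP. At 1.5-fold, 1 was higher on 10x, 1 in taPVAT and 4 in BAT, 1 was lower in labelled-RP and 2 in cow WAT, and 2 lower in brown among positive nuclei. At 3-fold, 0 were higher in labelled-mesPVAT, 1 in BAT and 1 in brown over all nuclei, and 0 were lower on 10x and in labelled-mesPVAT and 1 in BAT.

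Of the ratios of positive to negative nuclei, 457 values stayed, 66 moved and 4 turned direction. Turns were counted only for ratios that had met the 2-fold limit. Alpl in labelled-mesPVAT went to 0.819 with positive nuclei from 2 UMIs, Slc6a8 in BAT to 0.651 after thinning to 200 UMIs, and Ckb and Gatm in cow WAT to 0 after thinning, where 39 positive nuclei remained. No UMI of Ckb or Gatm was to be expected in so few nuclei at that depth, so these 0 values show no direction. The Slc6a8 value also rests on few UMIs, with positive nuclei called anew. Ratios that had not met the limit also crossed 1 at some settings, and are among the values that stayed or moved. Ckb in taPVAT, for example, went from 1.16 to 0.677 in sublibrary 2. In cow WAT, Gatm had a ratio of 5.84 in sublibrary 1 and 2.29 in sublibrary 2, and Ckb 2.21 and 4.18. The median-of-ratios scaling and the comparison with each white library alone were chosen after seeing the data. Against labelled-mesPVAT alone Alpl joined the members lower in brown, and against labelled-RP alone Pm20d1 joined those higher. These limits are looser than those set against both white libraries. The share of all genes past them was not computed, so no excess of members can be read from them. Depth limits members with under 20 UMIs: 5 members reached that number on 10x, 5 in labelled-mesPVAT, 2 in labelled-RP, 10 in cow WAT and 7 in each of BAT and taPVAT.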

Other observations

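In the library labelled mesPVAT, 3 barcodes held more than 15000 UMIs each, together 94506 UMIs or 5.70% of the library. They held 7 of the Atp2a3 UMIs, 5 of those of Atp2a2, 4 of Pm20d1, 3 of Alpl, 1 of Ckmt2 and 0 of Ckb. Sln, the SERCA inhibitor sarcolipin, had no UMI on 10x, in taPVAT or in BAT. It was near the floor elsewhere too, with 2 UMIs each in labelled-mesPVAT and labelled-RP. Cow WAT had 1 in positive and 4 in negative nuclei.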
